A study of Mus musculus with 44 samples.

Results

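The transcripts of 10 heterochromatin and retroelement repressors were followed in single mouse embryos at the 2-cell stage: *Trim28*, *Zfp57*, *Zfp445*, *Setdb1*, *Chaf1a*, *Chaf1b*, *Atrx*, *Daxx*, *Morc3* and *Smchd1*. They were taken by gene symbol from 35269 rows of the RNA-seq table, of which 16412 had a mean of at least 0 log2 RPM (a gene's reads scaled to the reads of the library) and were tested; all 10 members were among these. The series compared embryos with and without maternal and zygotic *Dppa2* and *Dppa4*, a pair of small chromatin-binding proteins, and held 44 Smart-seq2 libraries of 1 embryo each from 6 litters. WT embryos (n = 14, litters of 10 and 4) came from control females without the deletion and WT males. HET1 embryos (n = 15, litters of 7 and 8) were Dppa2/4+/- and came from conditional knockout females, whose oocytes lost *Dppa2/4* through Zp3-Cre, a recombinase driven by an oocyte promoter, and WT males. Females of the same conditional knockout genotype, crossed with Dppa2/4+/- males, gave HET2 embryos (Dppa2/4+/-, n = 5, 4 and 1 per litter) and HOM embryos (Dppa2/4-/-, n = 10, 3 and 7 per litter), which shared their litters. All groups were C57Bl/6, from natural matings, collected at embryonic day 1.5, and the oocytes of every group but WT had lost *Dppa2/4*.

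HET2 and HOM embryos were told apart by the submitters from their *Dppa2* and *Dppa4* reads, so these reads are no independent check: 3 of 10 HOM embryos had any *Dppa2* reads (at most 7), and all 5 HET2 embryos had at least 19. Total reads per embryo ran from 247667 to 3163026, with a median of 1770010 in WT, 528166 in HET1, 1108889 in HET2 and 803369 in HOM, so low genes are least precise in HET1. The oocyte and early embryo genes *Dppa3*, *Bmp15* and *Gdf9* had reads in 44 of 44 embryos. Apart from *Amhr2* (43 embryos), the listed cumulus cell genes had reads in at most 10 embryos, blood genes summed to at most 6.10 RPM, and *Ovgp1*, made by oviduct epithelium, had reads in 11 of 14 WT, 5 of 15 HET1, 3 of 5 HET2 and 1 of 10 HOM embryos. Of the other oviduct genes listed, *Epcam* had reads in 44 embryos, *Krt18* in 6, *Foxj1* in 3 and *Pax8* in 2. The listed oviduct genes summed to a median of 106 RPM in WT, 52.7 in HET1, 76.7 in HET2 and 111 in HOM. The highest embryo had 1644 RPM in WT, 147 in HET1, 88.8 in HET2 and 174 in HOM. Each library held a whole embryo, so less of a transcript per embryo and more of all other RNA cannot be told apart. WT and HET1 litters each belong to 1 group, so litter and group cannot be told apart there, and p-values measure the spread between embryos of few litters.

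These proteins silence repeats and imprinted or X-linked genes by different routes. KRAB zinc finger proteins such as Zfp57 and Zfp445 bind DNA at imprinted regions and retroelements and recruit Trim28 (KAP1), which brings the histone H3 lysine 9 methyltransferase Setdb1. Chaf1a and Chaf1b are subunits of CAF-1, the chaperone that loads histones behind the replication fork, while Atrx, a remodelling ATPase, works with Daxx, a chaperone of the histone variant H3.3. Morc3 is a nuclear ATPase that takes part in silencing endogenous retroviruses, and Smchd1 is an SMC-family protein known from the inactive X chromosome and imprinted clusters, where it acts as a maternal product.

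The stretches just upstream of 4 members are shown because these members formed the strongest positive and negative pairs when embryos of 1 litter were compared with each other (values further on). They are RefSeq promoters on GRCm38.p6, 5′ to 3′ on the strand of the gene, ending at the RefSeq start or, for *Atrx*, where annotated exons begin. Capitals mark the CCAAT box, the NRF1 core GCATGCGC and the E2F core (TTCCCGCC), searched on both strands; no marked matches overlap.

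Morc3, chr16:93831871-93832120, plus strand: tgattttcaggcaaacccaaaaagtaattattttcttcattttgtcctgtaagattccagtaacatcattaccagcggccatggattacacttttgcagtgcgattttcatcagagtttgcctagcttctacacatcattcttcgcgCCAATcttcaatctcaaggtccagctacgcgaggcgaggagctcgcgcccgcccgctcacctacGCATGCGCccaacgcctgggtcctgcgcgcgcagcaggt
Atrx, chrX:105929404-105929622, minus strand: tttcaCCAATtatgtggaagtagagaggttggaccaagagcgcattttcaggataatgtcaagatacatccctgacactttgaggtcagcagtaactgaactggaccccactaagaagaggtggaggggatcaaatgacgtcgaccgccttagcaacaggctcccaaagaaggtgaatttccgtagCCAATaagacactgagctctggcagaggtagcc
Trim28, chr7:13023902-13024151, plus strand: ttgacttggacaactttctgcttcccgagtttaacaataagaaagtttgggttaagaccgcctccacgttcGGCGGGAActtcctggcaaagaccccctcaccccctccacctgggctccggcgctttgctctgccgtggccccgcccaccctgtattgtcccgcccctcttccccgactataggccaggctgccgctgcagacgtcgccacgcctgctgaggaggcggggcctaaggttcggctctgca
Chaf1a, chr17:56040166-56040415, plus strand: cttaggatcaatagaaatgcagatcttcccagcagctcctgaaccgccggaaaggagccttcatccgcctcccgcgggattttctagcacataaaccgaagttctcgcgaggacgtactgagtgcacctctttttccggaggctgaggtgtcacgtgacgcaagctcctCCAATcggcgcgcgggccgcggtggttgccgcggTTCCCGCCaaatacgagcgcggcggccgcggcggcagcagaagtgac

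The 4 stretches differ in their letters. Counted over 250 bases before the start, *Chaf1a* had 28 CpG dinucleotides, *Morc3* and *Trim28* 17 each and *Atrx* 6, beside a median of 17 over the 14 RefSeq promoters of the 10 members and of 6 over 32851 promoters. The NRF1 core was found in 2.26% of all promoters and in 1 of the 14 promoters of the members, that of *Morc3*. The E2F core, searched also as TTTCCCGC and TTTGGCGC, was found in 2.69% of all promoters and in 2 of these 14, those of *Trim28* and *Chaf1a*. A CCAAT box stood in 33.8% of all promoters and in 6 of the 14. A match describes the letters of the window and not binding.

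Transcripts of all members were detected in WT embryos, at very different levels; the reads do not separate mRNA inherited from the oocyte from that made by the embryo. Per length of the longest coding transcript, *Morc3* and *Atrx* were highest, with median values of 73.2 and 72.1 RPM per kilobase of transcript (RPKM), and *Morc3* was the higher of the pair in 7 of 14 WT embryos. A gap followed: *Atrx* exceeded the next gene, *Zfp445*, in 14 of 14 embryos. *Zfp445* (20.2 RPKM), *Zfp57* (16.9), *Smchd1* (15.2), *Trim28* (12.7) and *Setdb1* (12.6) formed a middle group in which neighbours changed places from embryo to embryo, the upper one being higher in 6 to 9 of 14. The CAF-1 subunits *Chaf1a* (6.39 RPKM) and *Chaf1b* (4.05) and the H3.3 chaperone *Daxx* (3.36) were lowest. This order rests on the length used. The exons of all transcripts together span 5430 bases for *Morc3*, 21757 for *Atrx* and 19982 for *Smchd1*. Their longest coding transcripts have 4179, 10275 and 7052 bases. On the scale of all tested genes, with no correction for length, the mean log2 RPM of *Atrx* over all 44 embryos exceeded that of 99.6% of genes, and those of *Chaf1b* and *Daxx* exceeded 60.4% and 59.0%. The zinc finger pathway was unevenly covered in single WT embryos: *Zfp57* ran from -0.09 through a median of 5.45 to 5.94 log2 RPM (1 to 194 reads) and *Trim28* from 1.87 through 5.36 to 7.59 (5 to 309 reads). *Setdb1* was narrower, from 4.94 through 5.87 to 6.66 (38 to 232 reads). The 2 lowest values of *Zfp57* and of *Trim28* came from the same 2 WT embryos, which had the fewest genes with a read (9169 and 9403, where the other WT embryos had 10591 to 14199).

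**Figure D1:**
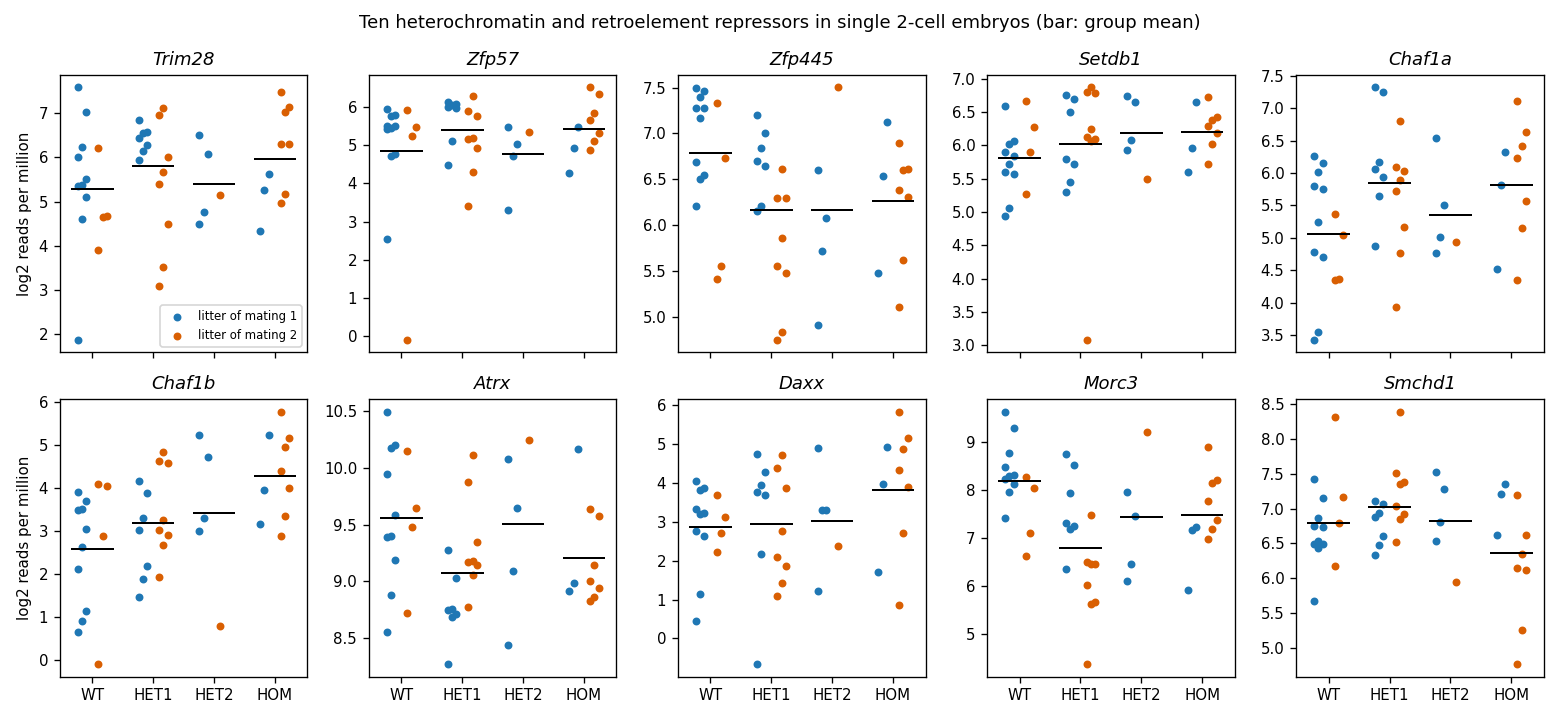
Deposited log2 RPM of each repressor in every embryo, by group, with blue points for embryos of the first mating, orange points for the second and a bar at the group mean. *Morc3* sits lower in HET1, above all in the second litter, *Chaf1b* sits higher in HOM, and no group is separated from WT for any member.

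The first question was whether embryos lacking both maternal and zygotic *Dppa2/4* differ from WT in these repressors. None of the 10 members passed the adjusted threshold (limma, Benjamini-Hochberg adjusted p of 0.05), where 0.0183% of the 16412 genes did (3 genes). At an unadjusted p under 0.05, 2 members and 14.5% of all genes passed in this limma fit. After embryos were re-centred on their median it was 5 members (*Chaf1b* with a positive difference, *Zfp445*, *Morc3*, *Smchd1* and *Atrx* with negative ones, and none past the adjusted threshold) and 13.3% of all genes, and over the alternatives from 1 to 5 members. The median of the 10 differences was 0.41 on the log2 scale, beside 0.09 over all genes tested, and 6 of 10 were positive. After re-centring it was 0.13 (0 over all genes), with voom 0.16 (0.29 over all genes) and without the second cKO x HET litter 0.07 (0 over all genes).

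The largest of the 10 differences was that of *Chaf1b*, the middle subunit of CAF-1. It had -0.09, 2.96 and 4.09 log2 RPM as lowest, median and highest value in WT, and 2.89, 4.20 and 5.78 in HOM. Of 10 HOM embryos, 9 lay above the WT median and 5 lay above every WT embryo, although the ranges overlapped. These values rested on 1 to 51 reads per embryo in WT and 5 to 49 in HOM. With the common floor described under processing, the log2 difference was 1.37 (SE 0.42), with an adjusted p of 0.14 by limma and of between 0.080 and 0.83 over 13 alternatives. *Chaf1a*, the large subunit, differed by 0.76 (SE 0.37, adjusted p = 0.34 by limma), with 8 of 10 HOM embryos above the WT median.

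*Chaf1a* carries a limit of its own. It lies on chromosome 17 (56040439 to 56072289, plus strand, GRCm38), and 52.5% of its exonic bases are shared with *Ubxn6* on the other strand, which counting without strand cannot tell apart. *Ubxn6* differed by 0.56 in the same comparison (limma adjusted p = 0.46), and across the 44 embryos it was the gene most like *Chaf1a* among 6919 (Pearson r = 0.91 after litter means were subtracted). *Chaf1b* has no such overlap; it lies on chromosome 16 (93883901 to 93906115, plus strand), just past *Morc3* (93832121 to 93876073, plus strand) and on the chromosome that carries *Dppa2* and *Dppa4*. The ratio of *Chaf1a* to *Chaf1b* per base had a median of 1.63 in WT, 2.15 in HET1, 0.95 in HET2 and 1.06 in HOM, with single embryos between 0.29 and 17.0 in WT, so the groups overlapped throughout.

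Among the other members, *Daxx* differed between HOM and WT by 0.92 (SE 0.46, limma adjusted p = 0.35) and *Morc3* by -0.69 (SE 0.40, limma adjusted p = 0.43). The *Morc3* difference was -0.02 without the first WT litter and -1.41 without the second cKO x HET litter, and that of *Daxx* was 0.56 without the latter and 0.48 with voom. *Daxx* had from 1 to 46 reads in WT and from 0 to 44 in HOM, where 1 embryo had none. *Trim28*, *Zfp57* and *Setdb1*, the core of the zinc finger pathway, differed by 0.67, 0.44 and 0.38, and *Zfp445*, *Smchd1* and *Atrx* by -0.52, -0.42 and -0.35, with limma adjusted p-values from 0.42 to 0.62. The sign for *Trim28*, *Zfp57* and *Smchd1* turned when the second cKO x HET litter was left out, and that for *Zfp445* when the first WT litter was left out.

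The comparison of HOM with HET2 embryos of the same litters asks about zygotic *Dppa2/4* with mother and mating held the same. Again no member passed the limma threshold, where 0.0183% of genes did, and no member had an unadjusted p under 0.05, where 4.81% of genes did. *Chaf1b* differed by 0.88 ± 1.29 (95% interval of the log2 difference), *Daxx* by 0.74 ± 1.41 and *Morc3* by -0.62 ± 0.95, so changes larger than the spread of WT embryos lie within these intervals. Without the single HET2 embryo of the second litter these values were 0.05 for *Chaf1b*, 0.24 for *Daxx* and -0.22 for *Morc3*, so they rest on that embryo. The *Morc3* value was 0.05 without the litter term. The other 7 members differed by between -0.35 (*Atrx*) and 0.40 (*Chaf1a*).

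**Figure D2:**
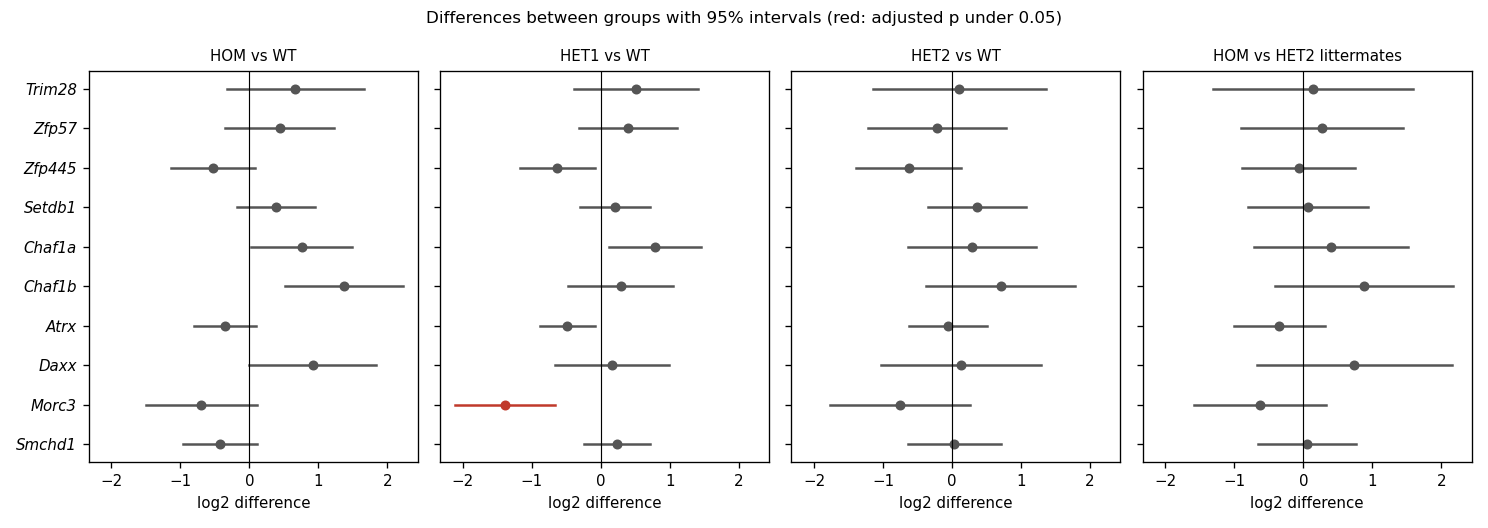
Log2 difference of each repressor in 4 comparisons (limma), with points at the estimate and lines over the 95% interval; red marks an adjusted p under 0.05. *Morc3* in HET1 against WT, at -1.39, is the only red point, and the intervals for HET2 and for littermates are the widest.

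The comparison of HET1 with WT combines the loss of maternal *Dppa2/4* with that of 1 zygotic allele, as HET1 embryos keep the copy from a WT father. *Morc3* was the 1 member of 10 past the threshold, where 4.54% of all genes tested were, and 2.05% in the lower direction (limma); it was lower. Its lowest, median and highest values were 6.64, 8.26 and 9.64 log2 RPM in WT and 4.39, 6.51 and 8.76 in HET1. The ranges overlapped, but 13 of 15 HET1 embryos lay below the WT median and 8 below every WT embryo. The log2 difference was -1.39 (SE 0.36, limma adjusted p = 0.018).

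The difference depended on which litters were included. Embryos of the first HET1 litter had a mean of 7.62 log2 RPM for *Morc3* (SD 0.84, n = 7), close to the second WT litter at 7.52 (SD 0.77, n = 4), while the first WT litter had 8.46 (SD 0.64, n = 10) and the second HET1 litter 6.08 (SD 0.90, n = 8). Without the second HET1 litter the difference was -0.57 (limma adjusted p = 0.51), without the first WT litter -0.72 (0.70), and without the first HET1 litter -2.11 (0.00024). With litter as a random effect it was -1.27 (limma adjusted p = 0.35), with total reads as a covariate -0.86 (0.43), and among embryos of at least 500000 reads -1.19 (0.13). Total reads moved with the groups, as given above, and their part in the result was not tested beyond these settings.

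*Chaf1a* (0.79, SE 0.33), *Zfp445* (-0.63, SE 0.27) and *Atrx* (-0.48, SE 0.20) also had an unadjusted p under 0.05 in HET1 against WT, making 4 of 10 members where 18.4% of all genes did; their limma adjusted p-values were 0.17, 0.19 and 0.17. The count was 1 of 10 with litter as a random effect (7.96% of all genes), with total reads as a covariate (10.8%) and without the first WT litter (13.6%). With the covariate the differences were 0.18 for *Chaf1a*, -0.29 for *Zfp445* and -0.16 for *Atrx*, and that of *Zfp445* was -0.09 without the first WT litter and -0.11 without the second HET1 litter. Without the first HET1 litter *Zfp445* differed by -1.08 and passed the threshold (limma adjusted p = 0.017). Without the second HET1 litter *Chaf1a* differed by 1.12 and *Atrx* by -0.77. For *Zfp445*, which guards imprints together with Zfp57, and for *Atrx*, 13 of 15 HET1 embryos lay below the WT median. *Trim28*, *Zfp57*, *Setdb1*, *Chaf1b*, *Daxx* and *Smchd1* differed by between 0.17 and 0.51, with limma adjusted p-values of at least 0.56. All 3 comparisons with WT share the same WT embryos, so a like direction in them is not independent.

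HET2 embryos, which have the same genotype as HET1 and a heterozygous father, had no member past the threshold against WT, where 0.0305% of genes passed (limma), and none at an unadjusted p under 0.05, where 8.52% of genes did. *Morc3* had 7.46, 7.95, 6.10, 6.47 and 9.21 log2 RPM in the 5 embryos, of which the last, alone from its litter, was the highest and lay within the WT range. The difference from WT was -0.75 (SE 0.50, limma adjusted p = 0.74), and those of *Chaf1b* and *Zfp445* were 0.70 and -0.63. Without the embryo alone from its litter, *Morc3* differed by -1.19, *Chaf1b* by 1.14 and *Zfp445* by -0.96, and these 3 members had an unadjusted p under 0.05, where 13% of genes did, with limma adjusted p-values of 0.31, 0.37 and 0.26. *Setdb1* (0.36), *Chaf1a* (0.29), *Daxx* (0.13), *Trim28* (0.11), *Smchd1* (0.03), *Atrx* (-0.06) and *Zfp57* (-0.22) were closer to WT. Compared directly, HET1 and HET2 had no member past the threshold, where 0.0122% of genes passed (limma), and none at an unadjusted p under 0.05, where 4.27% did; *Morc3* differed by -0.64 ± 1.01 (95% interval), *Zfp57* by 0.61 ± 0.99 and the other 8 by between -0.42 and 0.49. For *Morc3* this was -0.20 without the HET2 embryo alone from its litter and -2.41 without the first cKO x HET litter, which leaves that embryo alone in HET2; leaving out the first or the second HET1 litter gave -1.36 and 0.18.

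Litters of 1 cross were then compared with each other, which holds the parental genotypes constant. In HET1, *Morc3* and *Zfp445* passed the threshold, 2 of 10 members where 16.7% of all genes did, both lower, as were 11.7% of genes (limma). At an unadjusted p the same count of 2 stood beside 29% of all genes. *Morc3* had 6.36, 7.32 and 8.76 log2 RPM as lowest, median and highest value in the first litter and 4.39, 6.25 and 7.48 in the second, with ranges that overlapped, and the log2 difference was -1.54 (SE 0.39, limma adjusted p = 0.0054). *Zfp445* had 6.15, 6.70 and 7.20 in the first litter and 4.75, 5.71 and 6.61 in the second, also with overlap, a difference of -0.97 (SE 0.34, limma adjusted p = 0.042). Both calls were lost when embryos were re-centred on their median (-1.19 and -0.62) and with voom (-1.24 and -0.64), and that of *Zfp445* also among embryos of at least 500000 reads (-0.86, limma adjusted p = 0.27) and, with the difference still at -0.97, without the floor and without the filter (limma adjusted p = 0.061 in both).

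*Trim28* was more scattered in the second HET1 litter than in the first: its SD was 1.49 against 0.30 log2 RPM, with values of 3.08 to 7.12 and of 5.94 to 6.86. Its difference of -1.11 (SE 0.60) did not pass (limma adjusted p = 0.22). *Atrx* differed the other way, by 0.55 (SE 0.27, limma adjusted p = 0.17). The remaining members differed by between -0.64 (*Chaf1a*) and 0.58 (*Chaf1b*).

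In the cKO x HET cross, the second litter minus the first gave 1.35 for *Morc3* (SE 0.45, limma adjusted p = 0.067) and -1.02 for *Smchd1* (SE 0.33, limma adjusted p = 0.066); no member passed, where 4.94% of genes did, and 2 members had an unadjusted p under 0.05, where 20.3% of genes did. *Morc3* had 7.24, 7.17 and 5.92 log2 RPM in the 3 HOM embryos of the first litter and 6.98, 7.77 and 8.89 as lowest, median and highest of 7 in the second. *Smchd1* had 7.36, 7.21 and 6.62 in the first and 4.78, 6.15 and 7.19 in the second, and its 4 HET2 embryos of the first litter (7.28, 7.52, 6.54 and 6.80) all lay above the single one of the second (5.95). *Morc3* passed under 4 alternatives and *Smchd1* under 1, as listed under processing dependence. Between WT litters no member passed, where 2.57% of genes did, and 1 had an unadjusted p under 0.05, where 14.8% of genes did: *Morc3*, at -0.94 (SE 0.45, limma adjusted p = 0.31). *Zfp445* differed there by -0.75 and the other 8 by between -0.61 and 0.46.

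**Figure D3:**
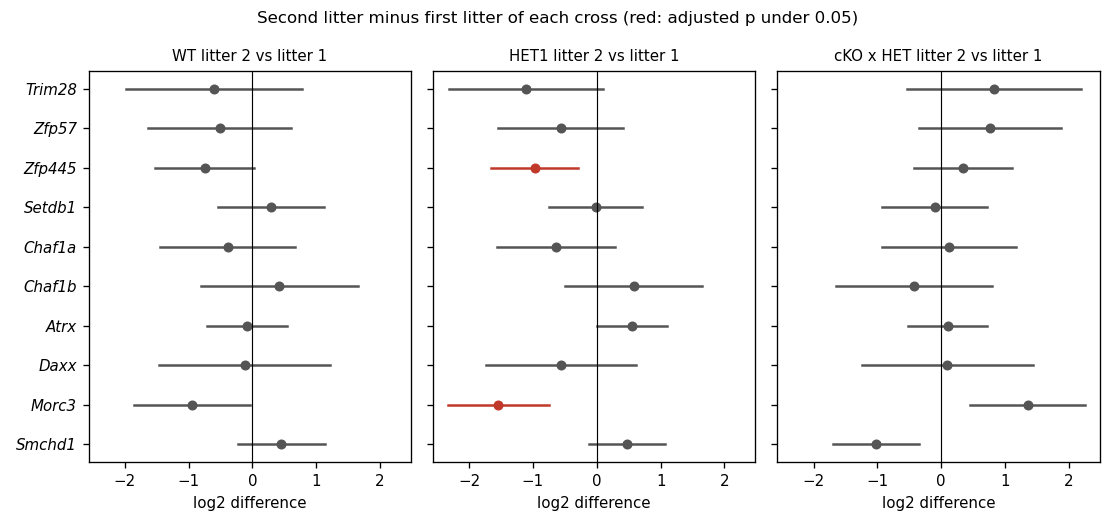
Second litter minus first litter on the log2 scale for each repressor within WT, HET1 and cKO x HET (HET2 and HOM together), with points at the limma estimate, lines over the 95% interval and red for an adjusted p under 0.05. The *Morc3* estimates are -0.94 and -1.54 in WT and HET1 and 1.35 in cKO x HET; whether these litter differences themselves differ was not tested.

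The spread between embryos of 1 group was set beside that of genes of a like level, on values with the common floor. The SD of *Morc3* was 0.79 log2 RPM in WT, 1.16 in HET1, 1.24 in HET2 and 0.82 in HOM, where the median SD of 691 tested genes of like mean was 0.63, 0.62, 0.60 and 0.57; it exceeded 70.8%, 95.7%, 94.5% and 83.9% of them. These SDs hold the difference between litters as well as that between littermates: within litters the SD of *Morc3* was 0.64 and 0.77 in WT, 0.84 and 0.90 in HET1, 0.86 in the 4 HET2 littermates and 0.74 and 0.67 in HOM. In WT the widest against its like was *Trim28*, with an SD of 1.40 beside a median of 0.90, above 94.0% of genes of like level. *Daxx* (0.72 beside 1.03) and *Setdb1* (0.51 beside 0.85) were narrow there, above 6.11% and 9.35% of their like. *Setdb1* was narrow in HOM too (0.37 beside 0.73) but not in HET1 (0.96 beside 0.83). The HET1 value rests largely on 1 embryo with 4 reads (3.08 log2 RPM), as the others lay between 5.30 and 6.87.

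Within litters, embryos ordered the members in opposite ways. Over the 44 embryos, after the mean of each group and litter was subtracted, 22 of 45 pairs of members had a positive Pearson r, with a median of -0.05. The highest were *Trim28* with *Chaf1a* (0.58) and *Atrx* with *Morc3* (0.55), and the lowest *Trim28* with *Atrx* (-0.60) and with *Morc3* (-0.56), so that embryos with more *Trim28* tended to have less *Atrx* and *Morc3*. Over 6919 genes with a mean of at least 3 log2 RPM, the median r was 0.27 with *Trim28* and 0.22 with *Chaf1a*. It was -0.19 with *Atrx* and -0.23 with *Morc3*, so the opposition is not particular to these repressors. The share of positive pairs over all genes was not computed. These are descriptions: values of 1 embryo share its library, depth and composition.

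**Figure D4:**
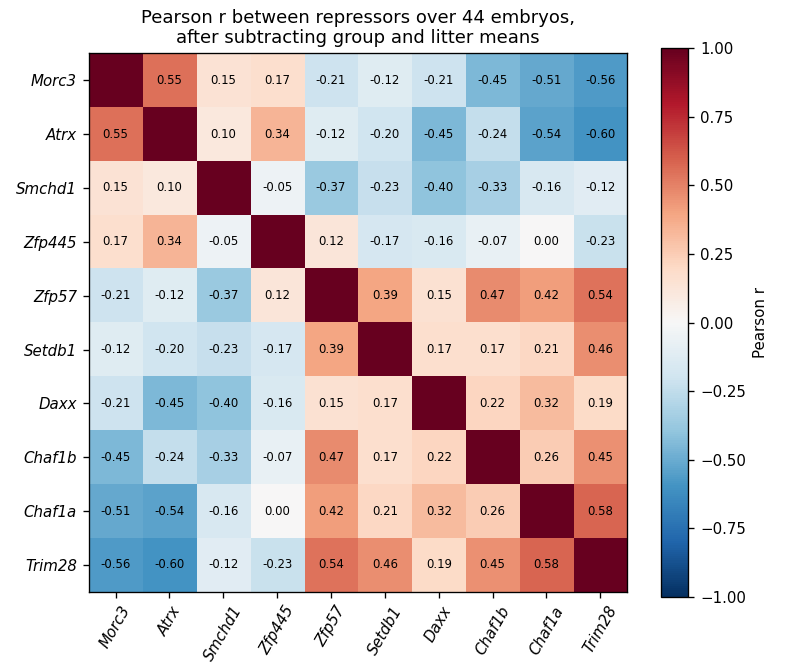
Pearson r between each pair of repressors over 44 embryos after group and litter means were subtracted, from -1 (blue) to 1 (red). *Morc3* and *Atrx* form a positive pair that is negative against *Trim28* and *Chaf1a*, from -0.51 to -0.60.

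The gene most like each member was chosen by the same measure among 6919 genes with a mean of at least 3 log2 RPM. For *Morc3* it was *mt-Cytb*, a subunit of respiratory complex III encoded by mitochondrial DNA (r = 0.85), for *Atrx* the ubiquitin ligase gene *Rlim*, like *Atrx* on the X chromosome (0.82), and for *Trim28* the metabolic enzyme gene *Pgd* (0.91). The others were *Zfp57* with *Sec24c* (0.79), *Chaf1b* with *Prkag1* (0.72), *Setdb1* with *Sprtn* (0.69), *Smchd1* with *Rad23b* (0.67), *Daxx* with *Aspscr1* (0.65) and *Zfp445* with *Chordc1* (0.63).

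Because a mitochondrial gene led for *Morc3*, the share of reads from the 13 mitochondrially encoded rows was set beside it. Its median was 12.1% in WT (7.64% to 20.2%), 7.87% in HET1 (4.18% to 18.6%), 8.43% in HET2 and 8.65% in HOM. By litter it had a mean of 13.2% and 10.5% in WT, 11.6% and 7.43% in HET1, and 7.69% and 12.3% in the cKO x HET cross, so litters with more *Morc3* within a cross also had the larger share. Within litters the log2 of this share had an r of 0.80 with *Morc3*, 0.52 with *Atrx*, -0.50 with *Trim28* and -0.54 with *Chaf1a*, and log2 total reads had an r of 0.47, 0.41, -0.36 and -0.46. Its part in the *Morc3* differences was not tested, nor was that of the cells behind the *Ovgp1* reads.

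Partners of these repressors were counted on lists that, like the members, were drawn up with earlier results of these data known. In HOM against WT, HET2 against WT and HOM against HET2 littermates, no gene of any list passed the limma threshold; at an unadjusted p under 0.05, 12, 11 and 2 of the 57 listed genes tested did, beside 14.5%, 8.52% and 4.81% of all genes, and in HET1 against WT 24 of 57 did, beside 18.4%. The lists hold 12 genes of H3K9 methylation and HP1, 6 tested HUSH and Morc genes, 12 zinc finger and other repressors, 16 histone chaperones and partners and 11 tested 2-cell genes, which Trim28, Setdb1 or CAF-1 hold down in embryonic stem cells. Many of the last belong to families of near-identical copies (Zscan4, Tcstv, Usp17l), between which reads may be split. The most abundant of the first list in HOM against WT, *Cbx5* (HP1 alpha), differed by -0.31 and that of the repressors, *Rif1*, by -0.55, with limma adjusted p-values of 0.49 and 0.22.

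In HET1 against WT, where 2.05% of all genes were lower and 2.49% higher by limma, 3 of 12 zinc finger and other repressors were lower and none higher: *Trim33* (-1.19), *Zfp263* (-1.16) and *Ctcf* (-0.57), of which the last is the insulator protein. Of the 16 chaperones and partners, 3 were higher and none lower, among them the HIRA complex subunit *Cabin1* (1.21) and the remodeller *Chd4* (1.18). Of the 2-cell genes, 3 of 11 were higher (*Tcstv1* 2.34, *AF067063* 1.37 and *Sp110* 0.75), with a list median of 1.14 beside 0.05 over all genes. Between the HET1 litters these 3 differed by 4.23, 0.78 and 0.07, second minus first. The mean log2 RPM of *Zscan4d* and *Tcstv3* in the first HET1 litter (4.18 and 3.90) was close to that in the first WT litter (4.03 and 3.84), and that in the second HET1 litter was 6.25 and 6.73. No gene of the H3K9 or HUSH lists passed. With litter as a random effect or total reads as a covariate, no gene of the whole table passed in this comparison, where 1307 and 1769 genes had an unadjusted p under 0.05.

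Between the HET1 litters, 8 of 11 2-cell genes were higher in the second, led by *Tcstv1* (4.23) and *Tcstv3* (2.70), and none was lower, where 5.01% of all genes were higher. *Morc3* and *Zfp445* were lower in the same comparison, and a link to the 2-cell genes was not tested. Over all genes its calls split into 822 higher and 1922 lower, and into 1301 and 1293 after re-centring. Of the chaperones 5 were higher, among them *Asf1a* (1.66), and 5 lower, among them *Hira* (-1.95) and *Sumo2* (-1.54). *Pphln1* (-1.57) and *Fam208a* (-1.02), both of the HUSH complex, were lower, *Cbx1* (2.01) was higher, and *Cbx5* (-0.80) and *Ehmt2* (-1.08) were lower. Of the zinc finger and other repressors, *Gm15446* (2.77) and *Zfp708* (2.43) were higher and *Zfp263* (-1.68) and *Trim33* (-1.16) lower.

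The cKO x HET litters ran the other way for the 2-cell genes, with 5 of 11 lower in the second litter, where 2.6% of all genes were lower, and none higher, led by *Usp17lc* (-3.23) and *Tcstv1* (-3.03), where the value for *Morc3* was 1.35. *Zfp809*, the zinc finger protein that targets murine leukaemia virus elements, was lower there (-2.03), as was *H3f3b* (-0.83). In mean log2 RPM by litter, *Zscan4d* stood at 5.53 and 2.89 in cKO x HET, *Tcstv3* at 5.88 and 2.91 and *Morc3* at 6.90 and 7.98; in HET1 *Morc3* stood at 7.62 and 6.08. In the WT litters, where *Morc3* stood at 8.46 and 7.52, *Zscan4d* was at 4.03 and 3.64 and *Tcstv3* at 3.84 and 4.79, so these 2-cell genes differed in opposite directions there. Whether *Morc3* and the 2-cell genes are linked was not tested.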

How the data were processed

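Smart-seq2 reads of 44 single embryos had been trimmed by the authors (Trim Galore 0.6.5, Cutadapt 2.3), mapped to GRCm38 with HISAT2 2.1.0, filtered at a MAPQ of at least 20 and quantified in SeqMonk without regard to strand; SeqMonk's annotation release is not given in the sources used here. The deposited values are log2 RPM, in which a gene without reads holds the value of 0.9 read. From that value, 99.9997% of entries came out as whole reads, with a tolerance of 0.05 read. The intervals given come from the limma fit and rest on the spread between embryos. Reads carry no molecular identifiers, so the limit of 3 reads that a count of 0 allows covers counting error only. No 2 columns were identical.

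Values under a common floor (1.86, the highest zero-read value) were set to it, and genes with a mean of at least 0 entered a limma fit (limma 3.58.1 under R 4.3.3; lmFit, eBayes with trend, Benjamini-Hochberg over 16412 genes, 0.05), with 4 groups in 1 model. Littermates and litters were compared in a model that adds a second-litter term per cross. Fold changes are on this floored log2 scale. The fit was also run on simulated data, with a log2 change of 1.5 put into 200 genes. Of these, 33.5% passed the threshold in HOM against WT and 37% in HET1 against WT. In HET2 against WT 24.5% passed, and in the HET1 litters 21%. Where the mean was at least 3, these shares were 66.3%, 75.3%, 39.3% and 42.7%. With a change of 3 they were 55.5%, 53.5%, 57.5% and 51% of all 200. Not passing therefore does not show that a member is unchanged. Python 3.11.15 with pandas 2.3.3 was used elsewhere. All 10 members' gene spans equal those of GENCODE for GRCm38. Lengths are those of the longest coding transcript.

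The members and lists were chosen with earlier results of these data known. Named genes were the 10 members, at most 4 genes past the threshold per list and comparison by absolute difference, otherwise the most abundant, and the gene most like each member; 1 listed gene is not reported here by name. Alternatives were the unfloored values, other filters (mean of at least 3, none), re-centring, limma voom on recovered reads, total reads as a covariate, embryos of at least 500000 reads, litter as a random effect, mating number as a block, and leaving out litters or embryos. Mating numbers are not known to pair samples across crosses, since the parental genotypes differ and the identities of the parents are not given.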

Additional observations from a re-analysis of the deposited data

How the results depend on the processing

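No member passed the threshold in HOM against WT, HET2 against WT, HET1 against HET2, HOM against HET2 littermates or the WT litters under any alternative run. In HET1 against WT the count of 1 member fell to 0 with total reads as a covariate, among embryos of at least 500000 reads, with litter as a random effect, and on leaving out WT litter 1 or HET1 litter 2, and became 2 (*Morc3* and *Zfp445*) on leaving out HET1 litter 1. In the HET1 litters the count of 2 became 1 without the floor, without a filter and among embryos of at least 500000 reads, and 0 after re-centring or with voom. In the cKO x HET litters the count of 0 became 1 (*Morc3*) without the floor, with voom and with total reads as a covariate, and 2 (*Morc3* and *Smchd1*) among genes with a mean of at least 3. The causes were not tested. Over all genes, HET1 against WT gave 745 calls and from 0 to 4054 under the alternatives, of which the highest came without the floor, and HOM against WT gave 3 and from 2 to 249. HET2 against WT gave 5 and from 0 to 95, HET1 against HET2 2 and from 0 to 89, HOM against HET2 littermates 3 and from 2 to 11, the WT litters 422 and from 181 to 976, the HET1 litters 2744 and from 1160 to 2981, and the cKO x HET litters 810 and from 510 to 1208. Re-centring turned the split of HET1 litter calls from 822 higher and 1922 lower to 1301 and 1293. Voom moved the median over all genes from 0.05 to 0.44 in HET1 against WT, from 0.09 to 0.29 in HOM against WT, from -0.00068 to 0.12 in HET2 against WT and from 0.06 to 0.24 in HET1 against HET2. *Daxx* had no reads in 3 HET1 embryos and 1 HOM embryo.

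With mating number as a replicate block, a number that crosses of different parental genotypes share, *Morc3* in HET1 against WT was -1.27 (limma adjusted p = 0.038) and no member's call changed.

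Log2 differences of uncalled members changed sign as follows. On leaving out cKO x HET litter 2, HOM against WT gave *Trim28* -0.22, *Zfp57* -0.11 and *Smchd1* 0.27, and HET1 against HET2 gave *Zfp445* 0.33, *Daxx* -0.15 and *Smchd1* -0.014. On leaving out WT litter 1, HOM against WT gave *Zfp445* 0.011, HET1 against WT gave *Setdb1* -0.0072, *Chaf1b* -0.012 and *Smchd1* -0.089, and HET2 against WT gave *Zfp57* 0.15, *Smchd1* -0.29 and *Atrx* 0.0027. With total reads as a covariate, HET1 against WT gave *Trim28* -0.16 and *Daxx* -0.18, HET2 against WT *Trim28* -0.054 and *Atrx* 0.021, HET1 against HET2 *Trim28* -0.10, *Zfp445* 0.25 and *Daxx* -0.22, and the cKO x HET litters *Daxx* -0.00096 and *Chaf1a* -0.044. On leaving out HET1 litter 1, HET1 against WT gave *Trim28* -0.0090 and *Daxx* -0.096 and HET1 against HET2 *Trim28* -0.12 and *Daxx* -0.23; on leaving out HET1 litter 2, these gave *Chaf1b* -0.020 and *Smchd1* -0.017, and *Zfp445* 0.52, *Morc3* 0.18 and *Smchd1* -0.050. With voom, *Daxx* was -0.24 in HET1 against WT and against HET2, *Atrx* 0.18 in HET2 against WT and 0.16 in the WT litters, *Setdb1* 0.26 and *Daxx* 0.13 in the HET1 litters, and HOM against HET2 littermates gave *Setdb1* -0.22, *Trim28* -0.066, *Zfp57* -0.0035 and *Smchd1* -0.13. Leaving out cKO x HET litter 1 leaves 1 HET2 embryo, assumed to vary like the other groups: against WT this gave *Setdb1* -0.32, *Trim28* -0.15, *Zfp445* 0.71, *Morc3* 1.02, *Chaf1b* -1.06, *Daxx* -0.64, *Zfp57* 0.35, *Chaf1a* -0.12, *Smchd1* -0.83 and *Atrx* 0.69, and HET1 against it *Setdb1* 0.52 and *Chaf1b* 1.34. HET2 against WT gave *Trim28* -0.065 on leaving out WT litter 2 and *Smchd1* -0.15 with litter as a random effect. Embryos of at least 500000 reads gave *Setdb1* 0.20 and *Zfp445* 0.049 in HET1 against HET2, *Setdb1* 0.055 and *Daxx* 0.70 in the HET1 litters and *Chaf1a* -0.13 in the cKO x HET litters. The block gave *Zfp445* 0.17 in HET1 against HET2. Without the floor *Daxx* was -0.083 in HET1 against HET2 and 0.090 in the WT litters. Re-centring gave *Daxx* -0.12 and *Smchd1* -0.011 in HET1 against HET2, *Setdb1* -0.24, *Trim28* -0.16, *Zfp57* -0.036 and *Smchd1* -0.25 in HOM against HET2 littermates, *Daxx* 0.11 and *Atrx* 0.041 in the WT litters and *Setdb1* 0.33 in the HET1 litters. Without the litter term, HOM against HET2 littermates gave *Zfp445* 0.10, *Morc3* 0.054 and *Smchd1* -0.46.

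Leaving out each HET2 embryo in turn, HET2 against WT ran from -0.17 to 0.33 for *Trim28*, -0.31 to 0.45 for *Daxx*, -0.39 to 0.15 for *Zfp57*, -0.0039 to 0.44 for *Chaf1a*, -0.14 to 0.25 for *Smchd1* and -0.24 to 0.21 for *Atrx*. HET1 against HET2 ran from -0.31 to 0.33 for *Zfp445*, -0.28 to 0.48 for *Daxx* and -0.014 to 0.38 for *Smchd1*. HOM against HET2 littermates ran from -0.28 to 0.18 for *Setdb1*, -0.39 to 0.41 for *Trim28*, -0.32 to 0.56 for *Zfp445*, -0.0042 to 0.45 for *Zfp57*, -0.049 to 0.16 for *Smchd1* and -0.56 to 0.042 for *Atrx*. Leaving out each embryo of WT litter 2, the WT litters ran from -0.37 to 0.11 for *Daxx*, -0.94 to 0.41 for *Zfp57* and -0.30 to 0.17 for *Atrx*.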
